A study of Homo sapiens with 6 samples.

Results

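The nuclear genes of respiratory complexes II to V and cytochrome c were examined in A549 cells, an established line of human lung adenocarcinoma, after CEP20 knockdown. The members were the genes whose symbols belong to a list of 41, namely 4 of complex II, 9 of complex III, CYCS, 11 of complex IV and 16 of complex V with its inhibitor ATP5IF1. All 41 were present among the 60624 Ensembl genes measured, and all 41 passed the filter of a mean of at least 1 TPM, as did 14778 genes in total. RNA-seq had been performed on 3 siCEP20 samples, in which small interfering RNA against CEP20 was transfected for 3 days, and on 3 siCTR samples, which received a control siRNA for the same time. Both groups were cultures of the same line, and the sources used here do not give which of the CEP20 siRNAs the sequenced cells received. The sample labels also name a plasmid transfection as the treatment of all 6 samples, whereas the study's methods describe siRNA. Nothing in the labels says that the 3 samples of a group came from separate cultures, so the p-values measure the spread between these samples, which may be technical. The comparison asks how the transcripts of these genes differed between cells with and without CEP20 knockdown.

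The respiratory chain in the inner mitochondrial membrane passes electrons from metabolic fuels to oxygen and pumps protons, and ATP synthase uses the proton gradient to make ATP. Complex II takes electrons from succinate, complex III passes them from ubiquinol to cytochrome c, complex IV reduces oxygen to water with them, and complex V is ATP synthase. Complex II is built wholly from nuclear genes, whereas complexes III, IV and V also hold subunits encoded by mitochondrial DNA. Many of the nuclear subunits are short proteins without a redox centre, the supernumerary subunits, which surround the catalytic core and take part in assembly and stability.

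TPM is a relative measure that divides the reads of a gene by transcript length and then by the total of the library, so each library summed to 1000000 and the sequencing depth of each sample was unknown. Between 14429 and 14987 genes reached 1 TPM in a library. Expression was compared on the log2(TPM + 1) scale with limma, a linear model fitted across all tested genes, with p-values adjusted by the Benjamini-Hochberg method. The log2 fold changes below are siCEP20 against siCTR on that scale and carry standard errors (SE), while levels are given in TPM with the standard deviation (SD, n = 3 per group). A gene is described as lower or higher when the adjusted p was under 0.05, and as called when its fold change was also over 1.5 or under 0.67. The targeted gene CEP20 (hg38, ENSG00000133393, chromosome 16, 15865719 to 15888625, minus strand) was at 29.2, 30.5 and 35.1 TPM in the siCTR libraries and 16.2, 15.3 and 17.3 TPM in the siCEP20 libraries (log2 fold change -0.92 ± 0.09, adjusted p = 0.000205), and every knockdown library lay below every control. Over all tested genes the log2 fold change had a median of 0.13, which moved to -0.01 with median-of-ratios scaling. Of the marker genes checked, KRT7, KRT8 and KRT18, keratins of epithelial cells, were high in all libraries. The 6 epithelial markers summed to 7029 to 7333 TPM with siCTR and to 8474 to 8709 TPM with siCEP20, and all 6 were higher. EPCAM, also an epithelial marker, was near the filter at 0.834, 1.24 and 1.05 TPM with siCTR and 3.28, 3.85 and 3.01 TPM with siCEP20. The 4 alveolar markers summed to at most 0.171 TPM and the 4 endothelial markers to at most 0.125 TPM in any library. COL1A2 and DCN of the 5 fibroblast markers, and CD3E of the 5 leukocyte markers, were listed at 0 in every library. The sum of the fibroblast markers, nearly all of it COL1A1, was 5.39 to 6.15 TPM with siCTR and 17.7 to 19.9 TPM with siCEP20. The sum of the leukocyte markers, nearly all of it CD68 and CD14, was 23.9 to 33.9 TPM with siCTR and 34.7 to 54.1 TPM with siCEP20. COL1A1 and CD68 were called higher, whereas CD14 went from 9.05 TPM with siCTR to 7.91 TPM with siCEP20 without passing the test. The part of COL1A1 and CD68 in the results below was not tested.

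After CEP20 knockdown, lower respiratory genes outnumbered higher ones. Of the 41 genes, 23 were lower, against 13.2% of all tested genes, and 3 were higher (SDHB, SDHC and ATP5PF), against 30.2% of all tested genes. The other 15 did not pass the test. With the fold thresholds, 11 genes were called lower, against 4.61% of all tested genes, and none was called higher, against 11.2%. The 6 libraries did not overlap between groups for 29 genes, with the siCEP20 libraries all below the controls for 25 (17% of all tested genes) and all above them for 4 (38.4% of all tested genes). The 41 genes had a median log2 fold change of -0.29, a difference of -0.42 from the tested genes as a whole, and single genes ranged from -0.87 for ATP5MC1 to 0.35 for ATP5PF. Together they took up 1.25%, 1.21% and 1.23% of the TPM of a library with siCTR and 0.990%, 1.05% and 1.01% with siCEP20, so the groups did not overlap. In bulk RNA, fewer cells with a transcript and less of it in each cell cannot be told apart. Another expressed gene overlaps 12 of the 41 genes, among them COX6C, ATP5PB, ATP5PF and ATP5ME, and reads of such pairs may be mixed. After median-of-ratios scaling, 33 of the 41 genes were lower and 2 higher, against 21.8% and 19.7% of all tested genes.

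**Figure D1:**
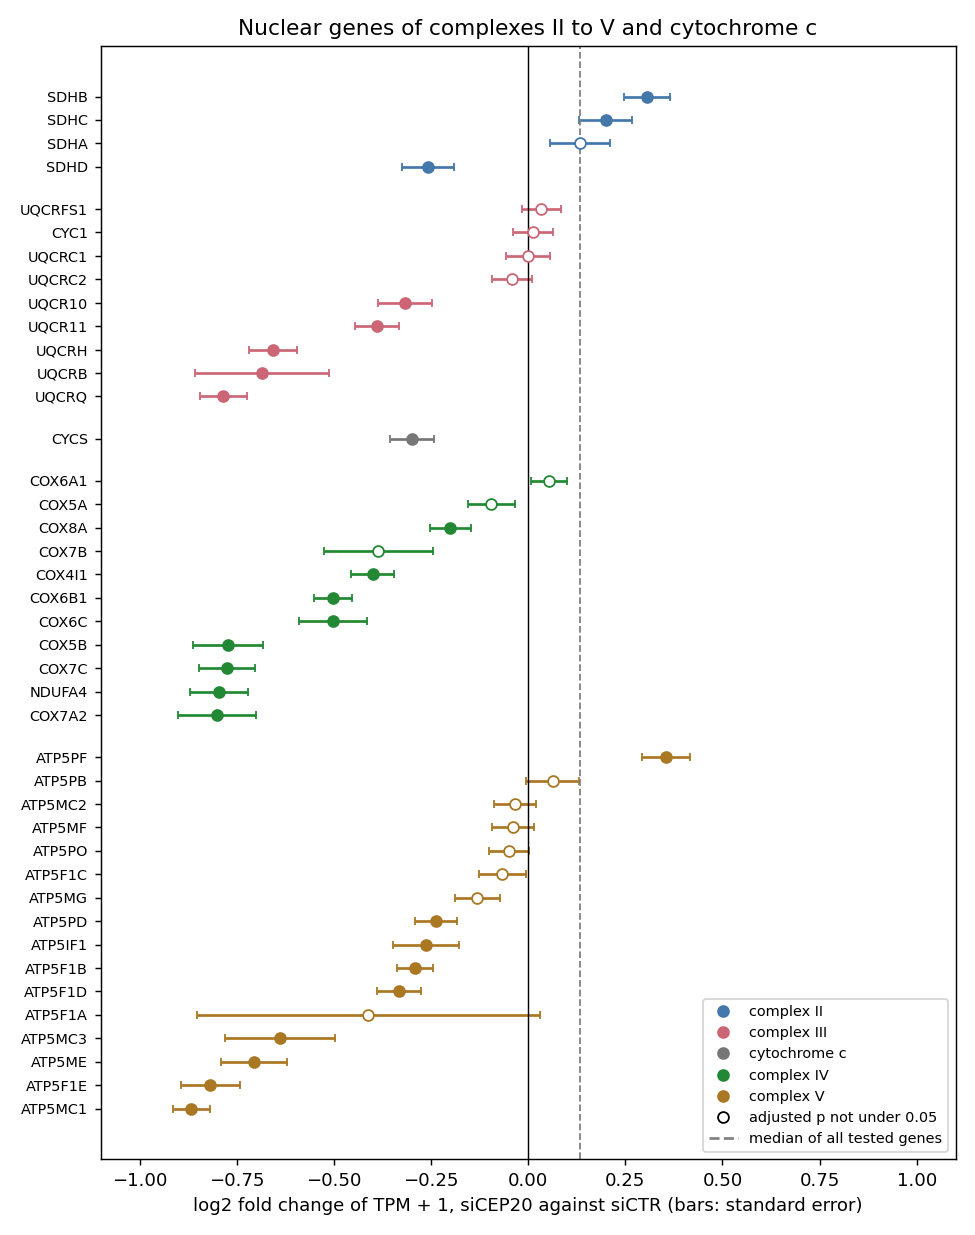
Log2 fold changes of the 41 genes (x axis, log2 of TPM + 1, siCEP20 against siCTR; bars, standard error) grouped by complex (y axis), with filled points for an adjusted p under 0.05 and a dashed line at 0.13, the median of all tested genes. The 5 lowest points of complex III are its supernumerary genes, whereas its other 4 genes lie close to 0.

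By complex, the share of lower genes ran from 1 of 4 in complex II to 8 of 11 in complex IV. Of all tested genes, 13.2% were lower and 30.2% higher, with a median log2 fold change of 0.13. In complex II, 1 of 4 genes was lower and 2 were higher, and their median log2 fold change was 0.17. That median was 0.03 above the one of all tested genes. After median-of-ratios scaling it was 0.01, against -0.01 over all tested genes. In complex III, 5 of 9 were lower and none was higher, with a median of -0.32. In complex IV, 8 of 11 were lower and none was higher, with a median of -0.50. Complex V had 8 of 16 genes lower and 1 higher, with a median of -0.25. The summed TPM of complex IV went from 5164 ± 108 (SD, n = 3) with siCTR to 4041 ± 157 with siCEP20, and that of complex V from 4690.0 ± 122 to 3973 ± 138. In complex III the sum went from 1876 ± 21.9 to 1578 ± 60.5 TPM, and in complex II it went the other way, from 479 ± 7.73 to 535 ± 19.4 TPM. For each of these 4 sums the groups did not overlap. These sums are descriptions, and the differences between complexes were not tested.

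In complex II, succinate dehydrogenase, SDHB and SDHC were higher, SDHD was lower and SDHA did not pass the test. SDHB encodes the iron-sulfur subunit, which passes electrons from the flavoprotein SDHA towards ubiquinone. SDHB (ENSG00000117118, chromosome 1, 17018664 to 17054032, minus strand) was at 111, 115 and 117 TPM in the siCTR libraries and 134, 149 and 142 TPM in the siCEP20 libraries, so every knockdown library was above every control library (log2 fold change 0.31 ± 0.06, adjusted p = 0.00396). SDHC encodes a membrane anchor that helps to bind ubiquinone and haem. SDHC was at 208, 198 and 179 TPM in the siCTR libraries and 224, 214 and 234 TPM in the siCEP20 libraries (log2 fold change 0.20 ± 0.07, adjusted p = 0.0459), again without overlap, although its adjusted p was over 0.05 in 10 of 15 alternative analyses, for example 0.727 after median-of-ratios scaling. SDHD, the other membrane anchor, was at 59.6, 62.6 and 63.1 TPM in the siCTR libraries and 48.1, 52.2 and 54.4 TPM in the siCEP20 libraries. All 3 knockdown libraries lay below the controls, and SDHD was the member of complex II that was lower (log2 fold change -0.26 ± 0.07, adjusted p = 0.0163), although its adjusted p was over 0.05 in 3 of 15 alternative analyses, at 0.0554 without siCEP20 replicate 1, 0.0511 without siCTR replicate 2 and 0.05005 with a correction of each library for transcript length and GC. SDHA, which carries the flavin and the succinate site, was at 97.0, 111 and 113 TPM in the siCTR libraries and 109.9, 119 and 124 TPM in the siCEP20 libraries. Its groups overlapped and it did not pass the test (log2 fold change 0.13 ± 0.08, adjusted p = 0.2), and pseudogenes of SDHA held 17.8% of the summed TPM of gene and pseudogenes, so its level is uncertain where reads were split between copies. After median-of-ratios scaling SDHB was still higher at 0.15 (adjusted p = 0.0311).

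The promoters of SDHB (chr1:17054033-17054282, minus strand) and SDHD (chr11:112086623-112086872, plus strand) are shown because these genes of the same complex moved in opposite directions. Each sequence holds the 250 bases before the transcription start of the canonical transcript, from RefSeq on GRCh38.p14, written 5′ to 3′ on the strand of the gene. Capitals mark letters that match the motif of ETS factors such as GABP (CCGGAAG), the motif of NRF1 or the YY1 motif (AANATGGCG) on either strand.
SDHB: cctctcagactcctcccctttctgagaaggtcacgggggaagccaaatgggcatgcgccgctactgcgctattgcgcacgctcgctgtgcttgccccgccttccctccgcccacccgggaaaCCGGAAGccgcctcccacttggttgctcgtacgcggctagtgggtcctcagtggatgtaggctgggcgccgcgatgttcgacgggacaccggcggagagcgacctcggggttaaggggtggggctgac
SDHD: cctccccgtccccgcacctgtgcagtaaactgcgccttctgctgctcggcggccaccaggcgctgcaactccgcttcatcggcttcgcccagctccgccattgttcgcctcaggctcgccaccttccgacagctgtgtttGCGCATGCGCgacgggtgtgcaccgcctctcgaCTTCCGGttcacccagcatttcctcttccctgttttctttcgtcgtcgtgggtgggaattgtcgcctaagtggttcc
SDHB held 1 ETS match, and SDHD held 1 NRF1 match and 1 ETS match on the opposite strand. Such a match is a description of the letters and not of binding.

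In complex III, the cytochrome bc1 complex, the supernumerary genes were lower and the core and redox genes did not pass the test. The coding sequences ran from 168 to 333 bases in the former and from 822 to 1440 bases in the latter. Role and coding length therefore cannot be told apart here, and the part of length in this split was not tested. UQCRQ, UQCRB, UQCRH, UQCR11 and UQCR10, which encode 5 short supernumerary subunits, were all lower, with log2 fold changes of -0.78, -0.69, -0.66, -0.39 and -0.32. With the correction of each library for transcript length and GC, UQCR10 did not pass the test (log2 fold change -0.18, limma adjusted p = 0.0569). UQCRC1 and UQCRC2, the large core proteins that face the matrix, had log2 fold changes of -0.00030 and -0.04. UQCRFS1, the Rieske iron-sulfur protein, and CYC1, cytochrome c1, had values of 0.03 and 0.01. The largest SE of these 4 redox and core genes was 0.06, and pseudogenes of UQCRFS1 held 9.27% of the summed TPM of gene and pseudogenes.

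UQCRQ is a short membrane subunit, and its libraries showed little spread within each group. UQCRQ (ENSG00000164405, chromosome 5, 132866630 to 132868847, plus strand) was at 168, 169 and 153 TPM in the siCTR libraries and 91.4, 97.0 and 94.6 TPM in the siCEP20 libraries, so the highest knockdown library was far below the lowest control (log2 fold change -0.78 ± 0.06, adjusted p = 7.33e-05). UQCRH, the acidic hinge protein that helps cytochrome c1 meet cytochrome c, was at 389, 372 and 356 TPM in the siCTR libraries and 235, 250.4 and 222 TPM in the siCEP20 libraries. The groups were again well apart (log2 fold change -0.66 ± 0.06, adjusted p = 0.00016), and with the length and GC correction the value was -0.47, short of the fold threshold. UQCRHL, a near copy of UQCRH without introns, was lower as well, going from 4.22 ± 0.407 TPM with siCTR to 2.53 ± 0.582 TPM with siCEP20, and reads of the pair could have been split between them. UQCRB, a ubiquinone-binding subunit, was at 120.3, 137 and 126 TPM in the siCTR libraries and 57.7, 85.7 and 99.1 TPM in the siCEP20 libraries. Its groups did not overlap, but siCEP20 replicate 1 stood apart from the other knockdown libraries (log2 fold change -0.69 ± 0.17, adjusted p = 0.0134), and without that library the log2 fold change was -0.46, which did not pass the fold threshold. With no filter on TPM the adjusted p of UQCRB was 0.0785. CYC1 was the most abundant gene of the complex and was at 409, 411 and 413 TPM in the siCTR libraries and 410.4, 436 and 398 TPM in the siCEP20 libraries, with overlapping groups (log2 fold change 0.01 ± 0.05, adjusted p = 0.864). The promoter of UQCRQ (chr5:132866392-132866641, plus strand) is shown as that of the most decreased gene of the complex, and it held 1 ETS match.
UQCRQ: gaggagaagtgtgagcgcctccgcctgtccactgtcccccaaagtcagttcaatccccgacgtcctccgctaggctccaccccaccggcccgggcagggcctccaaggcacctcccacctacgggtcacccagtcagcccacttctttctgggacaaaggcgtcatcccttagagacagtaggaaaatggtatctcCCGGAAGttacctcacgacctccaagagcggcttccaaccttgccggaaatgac

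The sums of the 2 kinds of gene separated in every library. The 4 core and redox genes summed to 983, 994 and 999 TPM in the siCTR libraries and to 982, 1041 and 963 TPM in the siCEP20 libraries, with overlap between the groups. The 5 supernumerary genes summed to 905, 895 and 852 TPM with siCTR and to 551, 606 and 592 TPM with siCEP20, without overlap. The ratio of the latter sum to the former was 0.920, 0.901 and 0.853 with siCTR and 0.561, 0.582 and 0.615 with siCEP20. A ratio taken within a library does not depend on how libraries are scaled, but it shows unequal change and not that the core genes stayed as they were. After median-of-ratios scaling, UQCRC1, UQCRC2 and CYC1 were lower too, with log2 fold changes of -0.16, -0.20 and -0.14, and 8 of the 9 genes of complex III were lower.

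**Figure D2:**
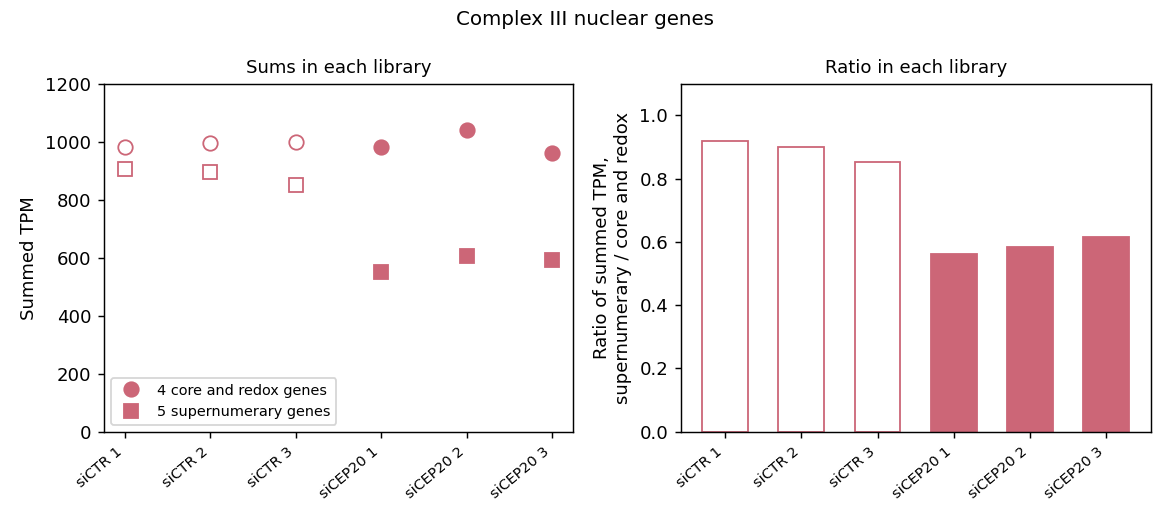
Summed TPM of the 4 core and redox genes (circles) and the 5 supernumerary genes (squares) of complex III in each library (left, y axis in TPM), and the ratio of the sums (right, bars from 0), with open symbols for siCTR and filled symbols for siCEP20. The ratio lies between 0.853 and 0.920 in the 3 siCTR libraries and between 0.561 and 0.615 in the 3 siCEP20 libraries. All 5 supernumerary genes also have shorter coding sequences than the other 4.

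CYCS encodes cytochrome c, the soluble carrier between complexes III and IV that also triggers caspase activation when it leaves mitochondria. CYCS (ENSG00000172115, chromosome 7, 25118656 to 25125260, minus strand) was at 73.7, 74.6 and 78.4 TPM in the siCTR libraries and 62.1, 61.0 and 60.5 TPM in the siCEP20 libraries. Every knockdown library was below every control (log2 fold change -0.30 ± 0.06, adjusted p = 0.00376), and the difference was under the fold threshold. The 42 pseudogenes of CYCS in the table together held 3.01% of the summed TPM of gene and pseudogenes.

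In complex IV, cytochrome c oxidase, all 11 genes encode supernumerary subunits, because the catalytic subunits are encoded by mitochondrial DNA. COX7A2, NDUFA4, COX7C and COX5B were called lower, and COX6C, COX6B1, COX4I1 and COX8A were lower with smaller changes. COX5A, COX7B and COX6A1 did not pass the test. NDUFA4, first assigned to complex I and now counted with complex IV, was at 110.3, 98.7 and 95.2 TPM in the siCTR libraries and 54.6, 59.4 and 59.8 TPM in the siCEP20 libraries. The knockdown libraries were all well below the controls (log2 fold change -0.80 ± 0.07, adjusted p = 0.000154). COX7A2, the isoform of subunit 7A found in most tissues, was at 298, 243 and 224 TPM in the siCTR libraries and 152, 144 and 139 TPM in the siCEP20 libraries. Its control libraries were spread more widely than its knockdown libraries, and the groups did not overlap (log2 fold change -0.80 ± 0.10, adjusted p = 0.000563). COX7C, a short membrane subunit, was at 552, 489 and 477 TPM in the siCTR libraries and 288, 315 and 282 TPM in the siCEP20 libraries, and the groups were separate as well (log2 fold change -0.77 ± 0.07, adjusted p = 0.000148).

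COX5B, a zinc-binding subunit on the matrix side, was at 287 ± 29.1 TPM with siCTR and 168 ± 15.2 TPM with siCEP20 (log2 fold change -0.77 ± 0.09, adjusted p = 0.000401). Its promoter (chr2:97645812-97646061, plus strand) is shown as that of a called gene of the complex with a motif match, a choice made after its values were seen.
COX5B: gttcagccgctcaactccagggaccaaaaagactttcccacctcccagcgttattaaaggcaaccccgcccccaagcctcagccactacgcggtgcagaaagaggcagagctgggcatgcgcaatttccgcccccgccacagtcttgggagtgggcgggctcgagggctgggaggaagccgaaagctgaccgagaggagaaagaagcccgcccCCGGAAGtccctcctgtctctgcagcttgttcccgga
COX6B1, a subunit on the intermembrane side, went from 819 ± 22.4 TPM with siCTR to 578 ± 22.1 TPM with siCEP20 (log2 fold change -0.50 ± 0.05, adjusted p = 0.000189). COX6C and COX4I1, the latter an early subunit in assembly, had log2 fold changes of -0.50 and -0.40. COX8A had a smaller value of -0.20, which was over the adjusted p of 0.05 in 5 of 15 alternative analyses and turned to 0.037 when each library was corrected for transcript length and GC.

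The most abundant gene of complex IV over the 6 libraries was COX6A1, the isoform of subunit 6A found outside muscle. COX6A1 was at 797, 761 and 804 TPM in the siCTR libraries and 804, 841 and 805 TPM in the siCEP20 libraries, so the knockdown libraries were slightly above the controls without overlap, although the gene did not pass the test (log2 fold change 0.05 ± 0.05, adjusted p = 0.388). COX6A1 was higher at 0.27 with the length and GC correction and at 0.14 with quantile normalization, and it was at -0.10 after median-of-ratios scaling without passing the test. COX5A, a subunit on the matrix side, was at 451 ± 25.9 TPM with siCTR and 422 ± 19.6 TPM with siCEP20, and its groups overlapped. COX7B, a short membrane subunit, lay below the controls in every knockdown library but had an adjusted p of 0.0567, which was under 0.05 in 6 of 15 alternative analyses, and siCEP20 replicate 1 held its lowest value. COX4I1 stood above COX6A1 in the controls, at 845 against 787 TPM, and below it after knockdown, at 640.4 against 817 TPM.

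In complex V, ATP synthase, lower genes were found in the F1 head, the central stalk, the c-ring, the peripheral stalk and the membrane part. ATP5F1B encodes the catalytic beta subunit and was the most abundant of the 41 genes. ATP5F1B (ENSG00000110955, chromosome 12, 56638175 to 56645984, minus strand) was at 1111, 1078 and 1086 TPM in the siCTR libraries and 885, 928 and 861 TPM in the siCEP20 libraries, without overlap and under the fold threshold (log2 fold change -0.29 ± 0.05, adjusted p = 0.00167). ATP5F1A, which encodes the alpha subunit of the same head, was at 316, 113 and 304 TPM in the siCTR libraries and 99.9, 174 and 264 TPM in the siCEP20 libraries and was singled out after its values were seen because its spread was the widest of the 41 genes. A library of each group was at a low level, the groups overlapped, and the gene did not pass the test (log2 fold change -0.41 ± 0.44, adjusted p = 0.485), with values from -0.89 to -0.05 when single libraries were left out.

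The central stalk turns inside the head. ATP5F1E, its epsilon subunit, was at 55.5, 52.6 and 47.3 TPM in the siCTR libraries and 29.7, 28.2 and 28.8 TPM in the siCEP20 libraries, and it was the least abundant gene of the complex in both groups. The knockdown libraries were close together and far below the controls (log2 fold change -0.82 ± 0.08, adjusted p = 0.000152). ATP5F1D, the delta subunit, was lower at -0.33, and ATP5F1C, the gamma subunit, did not pass the test at -0.07.

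**Figure D3:**
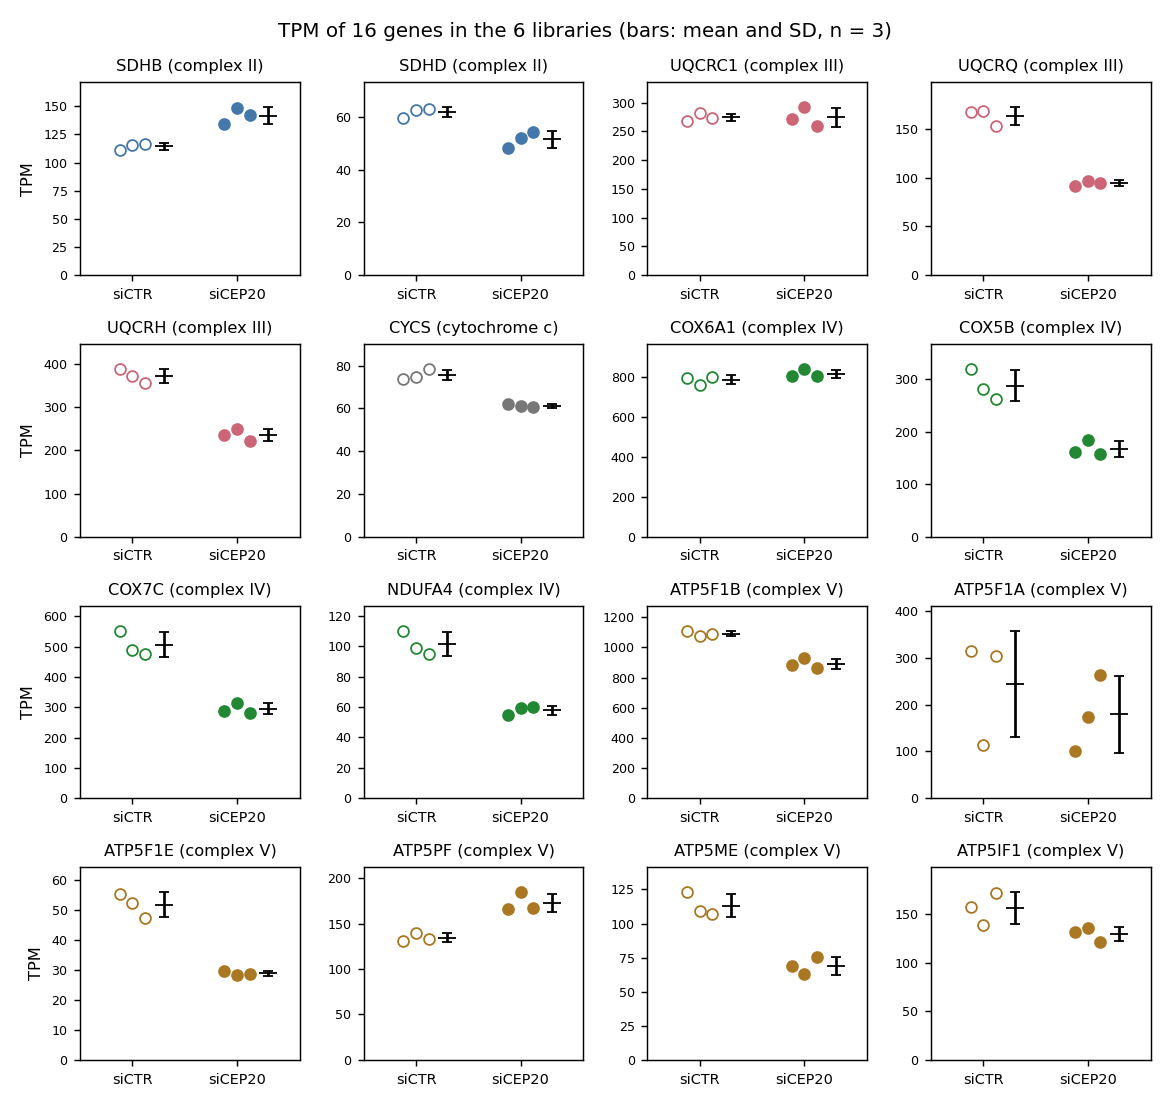
TPM (y axis, from 0) of 16 of the 41 genes in the 3 siCTR libraries (open points) and the 3 siCEP20 libraries (filled points), with the mean and SD (n = 3) beside each group. SDHB and ATP5PF lie higher after knockdown, UQCRQ and ATP5F1E lie lower without overlap, and the libraries of ATP5F1A scatter in both groups.

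The c-ring turns in the membrane and is made of 1 protein that 3 genes encode, since ATP5MC1, ATP5MC2 and ATP5MC3 differ in the import sequence that is cut off. ATP5MC1 (ENSG00000159199, chromosome 17, 48892765 to 48895871, plus strand) was at 431, 436 and 422 TPM in the siCTR libraries and 231, 242 and 231 TPM in the siCEP20 libraries, the largest decrease among the 41 genes (log2 fold change -0.87 ± 0.05, adjusted p = 3.07e-05). ATP5MC3 was at 196, 176 and 126 TPM in the siCTR libraries and 104, 109 and 101 TPM in the siCEP20 libraries. It was called lower (log2 fold change -0.64 ± 0.14, adjusted p = 0.00778), with siCTR replicate 3 closest to the knockdown libraries. Without siCTR replicate 1 the log2 fold change of ATP5MC3 was -0.51, which did not pass the fold threshold, and with no filter on TPM its adjusted p was 0.0527. ATP5MC2, the most abundant of the 3, was at 674, 725 and 723 TPM in the siCTR libraries and 655, 704 and 714 TPM in the siCEP20 libraries, with overlapping groups (log2 fold change -0.03 ± 0.05, adjusted p = 0.644), and it was lower after median-of-ratios scaling at -0.19.

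The share of each c-subunit gene in the sum of the 3 was compared library by library. ATP5MC1 made up 33.1%, 32.6% and 33.2% of the summed TPM of the 3 genes with siCTR and 23.3%, 23.0% and 22.1% with siCEP20. ATP5MC2 made up 51.8%, 54.2% and 56.9% with siCTR and 66.1%, 66.7% and 68.2% with siCEP20. The shares of both genes did not overlap between groups (two-sided exact permutation test, p = 0.1 for each, the smallest value that 3 against 3 libraries can give). The share of ATP5MC3 was 12.7 ± 2.58% with siCTR and 10.2 ± 0.465% with siCEP20 (SD, n = 3; exact permutation p = 0.3), with overlap. No other shares were tested, and none of the 3 could pass 0.05 in this design. The 3 shares of a library make up the whole, so their tests are not separate results. The share of ATP5MC2 rose while its own TPM overlapped between groups (log2 fold change -0.03). The sum of the 3 genes was 1300, 1337 and 1272 TPM with siCTR and 990, 1055 and 1046 TPM with siCEP20, so every knockdown library lay below every control.

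**Figure D4:**
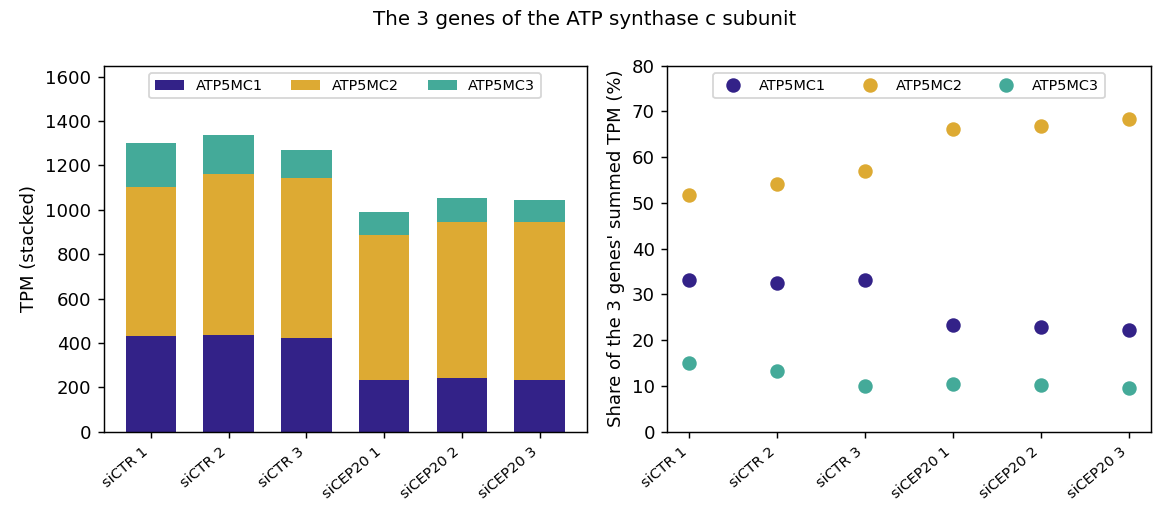
TPM of ATP5MC1, ATP5MC2 and ATP5MC3, stacked, in each library (left, y axis in TPM), and the share of each gene in the sum (right, y axis in percent). ATP5MC1 takes 32.6% to 33.2% in the siCTR libraries and 22.1% to 23.3% in the siCEP20 libraries, while ATP5MC2 takes the larger share in every library.

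In the peripheral stalk, which holds the head still, 1 of the 4 genes was higher, 1 was lower and 2 did not pass the test. Of all tested genes, 30.2% were higher and 13.2% lower, so counts this small show nothing particular to the stalk. ATP5PF, coupling factor 6, was at 131, 140.0 and 133 TPM in the siCTR libraries and 166, 184 and 168 TPM in the siCEP20 libraries. All 3 knockdown libraries were above the controls, and ATP5PF was the gene of complex V that was higher (log2 fold change 0.35 ± 0.06, adjusted p = 0.00248), also after median-of-ratios scaling at 0.20. ATP5PF (ENSG00000154723, chromosome 21, 25716503 to 25735673, minus strand) overlaps GABPA on the opposite strand, which encodes a subunit of the ETS factor GABP, and GABPA went from 6.61 ± 0.760 TPM with siCTR to 8.27 ± 0.476 TPM with siCEP20 without passing the test (log2 fold change 0.29 ± 0.11, adjusted p = 0.0631). ATP5PD, the d subunit, was lower at -0.24 but did not pass the test with the length and GC correction, at -0.06. ATP5PB and ATP5PO, the b subunit and the oligomycin sensitivity protein, did not pass the test at 0.06 and -0.05.

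The promoters of ATP5MC1 (chr17:48892537-48892786, plus strand) and ATP5PF (chr21:25734905-25735154, minus strand) are shown as those of the most decreased and the most increased of the 41 genes.
ATP5MC1: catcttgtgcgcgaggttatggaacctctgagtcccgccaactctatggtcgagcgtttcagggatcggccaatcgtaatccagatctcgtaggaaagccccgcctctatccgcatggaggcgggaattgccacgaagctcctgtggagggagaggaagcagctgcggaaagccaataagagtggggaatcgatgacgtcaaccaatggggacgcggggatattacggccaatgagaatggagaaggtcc
ATP5PF: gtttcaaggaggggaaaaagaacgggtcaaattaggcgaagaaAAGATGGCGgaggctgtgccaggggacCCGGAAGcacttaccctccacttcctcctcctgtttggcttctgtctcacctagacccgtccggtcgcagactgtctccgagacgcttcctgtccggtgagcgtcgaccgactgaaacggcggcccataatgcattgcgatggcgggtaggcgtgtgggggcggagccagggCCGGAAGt
ATP5MC1 held none of the 3 motifs marked by capitals, and ATP5PF held 2 ETS matches and 1 YY1 match. The ATP5PF stretch lies within the annotated span of GABPA, which starts at base 25734570 on the opposite strand, and within that of ATP5PF itself.

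Among the membrane subunits, ATP5ME, subunit e, which helps ATP synthase to form dimers, was at 123, 109 and 107 TPM in the siCTR libraries and 68.6, 62.8 and 75.7 TPM in the siCEP20 libraries. Its groups were separate (log2 fold change -0.70 ± 0.09, adjusted p = 0.000492), and with the length and GC correction the value was -0.46, short of the fold threshold. ATP5MF and ATP5MG, subunits f and g, did not pass the test at -0.04 and -0.13. With the length and GC correction, ATP5MF turned to 0.19 and was higher. ATP5IF1, the inhibitor that limits ATP hydrolysis by the enzyme, was at 157, 139 and 172 TPM in the siCTR libraries and 131, 136 and 122 TPM in the siCEP20 libraries. The groups did not overlap, but its control libraries were spread widely (log2 fold change -0.26 ± 0.08, adjusted p = 0.0357) and its adjusted p was over 0.05 in 9 of 15 alternative analyses.

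The spread between libraries was small for most of the genes. The coefficient of variation had a median of 4.42% over the 41 genes with siCTR and 4.55% with siCEP20, and it was over 10% for 5 genes with siCTR and for 3 genes with siCEP20. The genes over 10% with siCEP20 were ATP5F1A at 45.7%, UQCRB at 26.1% and COX7B at 20.5%, and siCEP20 replicate 1 was the lowest library of its group for each of them. That library held the lowest value of its group for 22 of the 41 genes. Without it, 20 of the 41 genes were lower and 10 were called, but the shares of all tested genes were not computed for that fit. The median log2 fold change of the 41 genes was then -0.22, against 0.15 over all tested genes in the same fit. Levels within a complex were unequal in both groups, and the highest mean TPM per lowest was 10.5 in complex IV and 21.1 in complex V with siCTR.

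The 41 genes had short coding sequences. Their median coding length was 387 bases in the canonical transcripts, from 153 bases in ATP5F1E to 1992 bases in SDHA, against a median of 1383 bases over 12269 tested protein-coding genes. Of the 27 members under 500 coding bases, 20 were lower and 1 was higher, and their median log2 fold change was -0.39. Of 1134 tested protein-coding genes that short, 391 (34.5%) were lower and 182 higher, with a median of -0.12. Among the 9 members from 500 to under 1000 bases, 2 were lower and 2 higher (22.2% each), with a median of 0.01, close to the 21.7% lower and 23.3% higher of the tested protein-coding genes of that length. Of the 5 longer members, from 1000 to under 2000 bases, 1 was lower and none higher, against 10.7% and 33.0% of the tested genes of that length. Across genes, the log2 fold change and coding length had a Spearman rho of 0.57 over the 41 members and of 0.30 over the tested protein-coding genes. With whole transcript length in place of coding length, rho was 0.05 over the 41 members and 0.28 over the tested protein-coding genes. These genes share the same 6 libraries and are not independent replicates, and longer genes had higher log2 fold changes in the series as a whole. In the tested genes of 2000 coding bases or more, 4.19% were lower and 46.3% higher. The part of transcript length in these results was not tested beyond the length and GC correction, after which 18 of the 41 genes were lower and 5 higher, against 12.1% and 28.4% of all tested genes. That correction used whole transcript length, so the part of coding length was not tested.

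**Figure D5:**
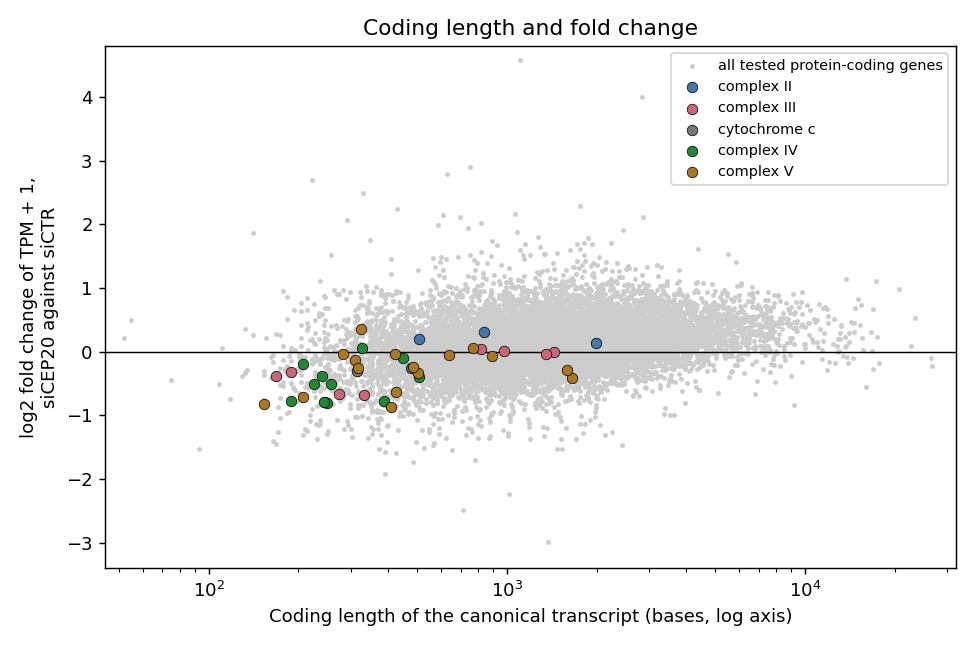
Log2 fold change (y axis, log2 of TPM + 1, siCEP20 against siCTR) against coding length of the canonical transcript (x axis, bases, log scale) for the 41 genes, coloured by complex, and for the tested protein-coding genes in grey. The members under 500 bases have a median of -0.39, and the grey points also rise with length (Spearman rho 0.30).

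Of the 41 genes, 32 had a RefSeq promoter at the start of the canonical transcript. The ETS motif was found on either strand in 12 of the 32 (37.5%), against 8.52% of 35116 promoters of the same length. The NRF1 motif, named for a factor that controls many respiratory genes, was found in 8 (25%), against 5.07% of all promoters. The YY1 motif was in 1 (3.13%, against 1.38%), the SP1 motif GGGCGG in 17 (53.1%, against 42.6%) and the CCAAT box in 11 (34.4%, against 32.0%). By direction, the ETS motif was in 8 of the 17 lower genes with a promoter, in 2 of the 13 that did not pass the test and in both higher genes with a promoter, SDHB and ATP5PF. The NRF1 motif was in 3 of the 17 lower genes and in 5 of the 13 that did not pass the test. CCAAT was in 9 of the 17 lower genes, ATP5MC1 among them, and in 2 of the 13 that did not pass the test. These counts are descriptions, no motif of the 5 contains another, and the absence of a match says nothing of the factor.

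Genes that act with complexes II to V were counted from hand-written lists. Of 42 assembly factors, 15 were lower, 5 higher and 7 called lower, against 13.2%, 30.2% and 4.61% of all tested genes, and the median was -0.14 against 0.13 for the tested genes as a whole. The lowest log2 fold changes were those of PET100, COX16 and COX14, which serve the assembly of complex IV. PET100 was at 27.4, 23.0 and 19.8 TPM in the siCTR libraries and 9.55, 9.71 and 14.7 TPM in the siCEP20 libraries (log2 fold change -0.998 ± 0.17, adjusted p = 0.00262). COX16 was at 35.2, 37.4 and 33.3 TPM with siCTR and 17.3, 18.6 and 20.2 TPM with siCEP20 (log2 fold change -0.88 ± 0.08, adjusted p = 0.00016), and COX14 was at 113, 97.7 and 92.8 TPM with siCTR and 42.4, 65.2 and 58.6 TPM with siCEP20 (log2 fold change -0.88 ± 0.15, adjusted p = 0.00242). For each of the 3 factors every knockdown library was below the controls.

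Of 11 further subunits and tissue isoforms, 6 were tested, 4 of them were lower and 1 was higher, against the same 13.2% and 30.2% of all tested genes. ATP5MK and ATP5MJ, small membrane proteins of ATP synthase, had the lowest log2 fold changes of the list. ATP5MK was at 275, 258 and 229 TPM in the siCTR libraries and 120.3, 124 and 122 TPM in the siCEP20 libraries (log2 fold change -1.05 ± 0.07, adjusted p = 5.22e-05), a larger change than that of any of the 41 genes. ATP5MJ was at 204, 186 and 199 TPM with siCTR and 113, 126 and 114 TPM with siCEP20 (log2 fold change -0.73 ± 0.07, adjusted p = 0.000126). COX6B2, the isoform of COX6B1 known from testis, was called higher at a low level of 0.619, 0.756 and 1.29 TPM with siCTR and 2.46, 3.23 and 2.33 TPM with siCEP20 (log2 fold change 0.97 ± 0.19, adjusted p = 0.00494). Its mean was 0.887 TPM with siCTR, under the filter of 1 TPM, and 2.67 TPM with siCEP20. The gene entered the test only through the siCEP20 libraries, so its call is not independent of the filter. The 6 genes of mitochondrial DNA that encode subunits of complexes III, IV and V were listed at 0 in every library, so the mitochondrial part of the complexes was not measured.

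The citric acid cycle feeds complex II with succinate. Of its 14 enzymes other than succinate dehydrogenase, 6 were higher and 1 was lower, with a median of 0.23, read against the 30.2% and 13.2% of all tested genes. SUCLG2, a subunit of the GTP-forming succinyl-CoA ligase, was called higher at 44.7, 46.5 and 47.3 TPM in the siCTR libraries and 69.5, 71.2 and 68.5 TPM in the siCEP20 libraries (log2 fold change 0.59 ± 0.06, adjusted p = 0.000202). Of 7 carriers and porins for ADP, ATP and phosphate, 2 were lower, 1 was higher and none was called. Among 12 tested regulators of respiratory gene transcription, 1 was lower and 2 were higher, and the counts of both lists stand against the same 13.2% lower and 30.2% higher of all tested genes. ESRRA, an orphan receptor that activates respiratory genes, was called lower at 60.8, 58.8 and 55.4 TPM in the siCTR libraries and 41.7, 39.8 and 32.4 TPM in the siCEP20 libraries (log2 fold change -0.61 ± 0.10, adjusted p = 0.00171). PPRC1, a coactivator related to PGC-1alpha, was called higher at 33.0, 38.3 and 44.9 TPM in the siCTR libraries and 55.1, 56.9 and 63.2 TPM in the siCEP20 libraries (log2 fold change 0.59 ± 0.11, adjusted p = 0.00381). NRF1 itself did not pass the test (log2 fold change -0.01 ± 0.09, adjusted p = 0.931), and PPARGC1A was below the filter, at most at 0.183 TPM.

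Complex I, the entry point for electrons from NADH, also had more lower than higher genes. Of its 37 nuclear genes, 22 were lower, 3 were higher and 10 were called lower, against 13.2%, 30.2% and 4.61% of all tested genes, and the median was -0.37. NDUFA13, NDUFC2 and NDUFA1 had the lowest log2 fold changes, at -1.23, -1.22 and -1.21. NDUFA13 was at 192, 174 and 192 TPM in the siCTR libraries and 59.2, 63.6 and 129 TPM in the siCEP20 libraries, so siCEP20 replicate 3 stood above the other knockdown libraries. The difference between complex I and complexes II to V was not tested.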

How the data were processed

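RNA-seq of 3 siCEP20 and 3 siCTR samples of A549 cells was analysed. The authors trimmed reads with fastp 0.20.1, aligned them to hg38 with HISAT2 2.1.0 and quantified genes with StringTie 2.0, and they deposited the TPM of each Ensembl gene. The annotation release and the strand setting of the counting are not given in the sources used here. TPM holds no read counts, so depth is unknown, no counting interval was computed, and precision rests on 3 libraries per group. The authors' own test was DESeq2, which needs counts. Fold changes on the log2(TPM + 1) scale understate the change of low genes.

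Genes were named and placed with GENCODE release 44 (hg38). The functions lmFit and eBayes (trended) of limma 3.58.1, run in R 4.3.3, were applied to log2(TPM + 1) of the 14778 genes averaging 1 TPM or more, without rescaling and without a replicate term, with Benjamini-Hochberg adjustment over all of them. Shares of the c-subunit genes were compared by exact permutation over libraries. Motifs were sought on both strands of RefSeq promoters. Tables and figures were made in Python 3.11.15 with pandas 2.3.3, numpy 2.4.6, matplotlib 3.10.9 and scipy 1.17.1. The fit was tested on simulated data. The 41 genes and all lists were chosen with earlier results of these data known. Values in every library are given for the higher genes, the 3 genes of each complex with the largest absolute log2 fold change (all 4 of complex II), the most abundant gene of each complex, CYCS, ATP5IF1 and the c-subunit genes. From each list, counts and up to 3 genes past the fold thresholds are given.

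Results were recomputed with the replicate number as a block, median-of-ratios scaling, a pseudocount of 0.1, quantile normalization, a filter of 5 TPM or none, untrended eBayes, a loess correction for transcript length and GC content (span 0.5), protein-coding genes only, each library left out, members overlapping an expressed gene left out, and fold thresholds of 2 and 0.5. The value of 1 leukocyte marker is not reported here.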

Additional observations from a re-analysis of the deposited data

How the results depend on the processing

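The count of lower genes ranged from 18 with the length and GC correction to 33 with median-of-ratios scaling over the alternative fits of all 41 genes, against 23 as reported. No gene was called higher in any alternative, while 0 genes were called lower with fold thresholds of 2 and 0.5 (limma), against 11 at 1.5 and 0.67. The share of all tested genes past 2 and 0.5 was not computed, so that count of 0 cannot be read against the series. The median log2 fold change, -0.29 as reported, was -0.18 with the length and GC correction, -0.34 with quantile normalization and -0.45 with median-of-ratios scaling, and it lay between -0.31 and -0.22 when single libraries were left out. With the length and GC correction 5 genes were higher, against 3 as reported. Over 615 combinations of a gene and an alternative, 545 kept their direction and their side of the threshold. With the direction kept, 30 lost the adjusted p of 0.05 and 17 gained it. The remaining 23 changed sign, some of which also crossed that threshold, and the causes were not tested. With median-of-ratios scaling the sign changed for CYC1 (-0.14), SDHA (-0.023), UQCRFS1 (-0.12), COX6A1 (-0.10) and ATP5PB (-0.092). With the length and GC correction it changed for COX8A (0.037), ATP5MF (0.19), ATP5MC2 (0.18), ATP5PO (0.11), UQCRC1 (0.090), ATP5F1C (0.033), UQCRFS1 (-0.0058) and COX5A (0.0044). With quantile normalization it changed for UQCRFS1 (-0.021), ATP5PB (-0.0014) and ATP5MF (0.027), and with protein-coding genes only for UQCRC1 (0.014). When single libraries were left out, values of both signs were found for UQCRC1 (-0.045 to 0.039), CYC1 (-0.025 to 0.042), ATP5MC2 (-0.069 to 0.0040) and ATP5MF (-0.065 to 0.0025). SDHB and ATP5PF kept their direction and their side of the threshold in all 15 alternatives. Leaving out the 12 genes that overlap an expressed gene left 16 of 29 lower and 2 higher, against 13.2% and 30.2% of all tested genes. With the replicate number as a block, 23 genes were lower, 2 higher and 11 called lower, and the shares of all tested genes were not computed. The median of the 41 genes was -0.29 in that fit, against 0.13 over all tested genes. Libraries of the same number correlated at 0.157, -0.0614 and -0.0623 in their deviations from the group means. So few values cannot settle whether the numbers pair the samples.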

Other observations

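Of the 41 genes, 12 overlap another gene of at least 1 TPM on average, and without the strand setting of the counting the reads of such pairs may be mixed. ATP5PB overlaps WDR77 on the opposite strand, and WDR77, a methylosome subunit, was lower (log2 fold change -0.25 ± 0.07, adjusted p = 0.018) while ATP5PB did not pass the test. COX6C overlaps VPS13B on the opposite strand, and VPS13B, a lipid transfer protein of the Golgi, was higher (log2 fold change 0.45 ± 0.12, adjusted p = 0.0177) while COX6C was lower. ATP5ME overlaps MYL5, which was lower (log2 fold change -0.37 ± 0.11, adjusted p = 0.0291), as was ATP5ME itself.

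Named pseudogenes were present in the table for 32 of the 41 genes, 175 in all, and they held over 5% of the summed TPM for SDHA and UQCRFS1. For COX6A1 the 7 pseudogenes summed to 18.3 TPM with siCTR and 29.3 TPM with siCEP20, against 787 and 817 TPM of the gene.

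Of the isoforms known from other tissues, 5 were below the filter, whereas COX6B2 passed it only through the siCEP20 libraries. COX6A2, the muscle isoform of subunit 6A, was listed at 0 in every library, and COX4I2, COX7B2 and COX8C each reached at most 0.137 TPM in 1 library. COX7A1, the muscle isoform of subunit 7A, reached at most 0.976 TPM. NDUFA4L2, a relative of NDUFA4 known as a hypoxia-induced gene, did not pass the test (log2 fold change -0.03 ± 0.09, adjusted p = 0.803), whereas NDUFA4 was called lower.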
